A study of Mus musculus with 76 samples.

Results

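Meis1, Hlf, Mecom and Prdm16 are transcription factor genes known for their part in blood stem cells, and their RNA was followed here across all 24 groups of mouse cells in the series. They are 4 of the 37980 genes of the deposited table, were taken by name, and were all found and all tested. Each library held 1000 sorted cells of the strain C57BL/6, and values are FPKM, the fragments of a gene divided by its transcript length and by the size of the library. Of the 15 natural groups, those of bone marrow (BM) were hematopoietic stem cells (HSC), the multipotent progenitors below them (MPP), early T progenitors (ETP), pro/pre-B cells and the mature lineages, which were B, T and myeloid. Those of the thymus were ETP, the double negative stages DN1, DN2, DN3 and DN4, the double positive stage (DP), and single positive (SP) cells with CD4 or with CD8. The 9 induced groups carry the names of the thymic stages and of both kinds of ETP. Induced cells descended from bone marrow pro/pre-B cells that were given Hoxb5 by a virus, sorted and transferred into recipients that had been irradiated at a sublethal dose. They were sorted again from the recipients' marrow or thymus, so they differ from natural cells in the added gene, in the transfer and in the irradiated host at once. These cannot be told apart, and whether host cells entered an induced sort was not tested. The labels give no ages and no sort gates. They do not say whether the 2 to 4 libraries of a group came from separate animals, so the tests measure the spread between libraries, which may be technical.

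Meis1 is a homeodomain protein that binds DNA together with Pbx and Hox proteins. Hlf is a bZIP factor of the proline and acidic amino acid rich (PAR) family. Mecom (the Mds1 and Evi1 complex locus) and Prdm16 are close relatives, zinc finger proteins whose longer forms carry a PR domain. In bone marrow all 4 genes are known for their activity in stem cells and early progenitors, where loss of Meis1, Mecom or Prdm16 depletes stem cells, and each has been linked to leukemia.

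The genes lie on 3 chromosomes, all on the minus strand. In the GRCm38 annotation Meis1 (ENSMUSG00000020160) spans chr11:18879817-19018985, Hlf (ENSMUSG00000003949) chr11:90336536-90390895, Mecom (ENSMUSG00000027684) chr3:29951296-30548008 and Prdm16 (ENSMUSG00000039410) chr4:154316125-154636873. The authors mapped to another build, NCBIM37, so these positions locate the genes and were not used on the data. The 250 bases before a start site are printed for each gene because Meis1, Hlf and Mecom share a pattern across groups that Prdm16 shares only in part. They come from the RefSeq promoter table of GRCm38.p6, written 5′ to 3′ on the gene's strand, and capitals mark a match to one of 7 motifs.
Meis1, chr11:19018970-19019219: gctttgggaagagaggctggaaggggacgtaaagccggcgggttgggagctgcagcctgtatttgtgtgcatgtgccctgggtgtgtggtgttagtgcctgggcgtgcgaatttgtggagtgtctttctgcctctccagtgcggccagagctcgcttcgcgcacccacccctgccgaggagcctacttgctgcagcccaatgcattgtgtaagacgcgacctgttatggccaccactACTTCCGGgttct
Hlf, chr11:90390918-90391167: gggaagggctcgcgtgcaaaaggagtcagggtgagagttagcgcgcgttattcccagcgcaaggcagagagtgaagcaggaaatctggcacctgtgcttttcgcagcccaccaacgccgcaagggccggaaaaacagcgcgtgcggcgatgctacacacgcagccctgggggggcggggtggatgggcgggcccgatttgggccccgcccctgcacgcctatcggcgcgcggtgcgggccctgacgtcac
Mecom, outer start, chr3:30509760-30510009: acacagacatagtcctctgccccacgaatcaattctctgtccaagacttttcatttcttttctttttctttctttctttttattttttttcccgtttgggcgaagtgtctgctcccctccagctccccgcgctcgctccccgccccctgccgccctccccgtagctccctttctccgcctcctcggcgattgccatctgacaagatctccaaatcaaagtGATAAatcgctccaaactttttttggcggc
Prdm16, chr4:154636874-154637123: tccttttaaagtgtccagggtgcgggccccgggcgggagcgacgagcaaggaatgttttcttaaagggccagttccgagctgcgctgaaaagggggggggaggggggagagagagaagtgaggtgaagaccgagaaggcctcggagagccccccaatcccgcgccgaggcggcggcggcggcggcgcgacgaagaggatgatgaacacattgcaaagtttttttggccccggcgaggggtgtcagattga

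Each motif was searched on both strands. The Meis motif was read as TGACAG, and the motif of GATA factors as GATAA. The motif of ETS factors was CCGGAAGT, and that of the PAR bZIP family was TTACGTAA. The E-box was CAGCTG, the box of core promoters bound by the TATA binding protein was TATAAA, and the composite of Hox and Meis was TGATTGAC. No matches in these windows overlapped. The Mecom outer start held a GATA match on its own strand, beginning 30 bases before the start. This start is the outermost in the promoter table but lies inside the annotated span of the gene, whose 5′ end was not searched. Meis1 held an ETS match on the other strand, whose first base lies 13 bases before the start. Hlf and Prdm16 held no match, which says only that these letters are not in those windows. Among 32851 mouse promoters of this length, 22.6% held the GATA letters, 2.88% the ETS letters, 15.9% the Meis letters, 13.0% the E-box, 12.4% the TATA box, 0.691% the composite and 0.113% the PAR bZIP letters. A second Mecom start, chr3:30013205-30013454 in the same table, held 1 Meis and 1 GATA match, both on the other strand. The related genes Mecom and Prdm16 shared a run of 24 bases just past their starts, at bases 27 to 50 of the outer Mecom start (chr3:30509710-30509733, minus strand) and 10 to 33 of Prdm16 (chr4:154636841-154636864, minus strand).
Mecom and Prdm16, shared run: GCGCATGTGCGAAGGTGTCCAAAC
No other promoter of the 32851 held it. The next longest run shared by promoters of different members had 11 bases (Prdm16 and Hlf).

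Depth and replicates set how far low values can be read. Depth, estimated from the step between low FPKM values, ran from 0.978 to 11.1 fragments per FPKM and kilobase with a median of 4.28, and the 2 myeloid libraries were the shallowest (0.978 and 0.991). A gene listed at 0 was thus below about 1 fragment in that library. The size of a log2 difference against a group listed at 0 depends on the 1 added before the log2. Libraries of a group correlated at 0.910 to 0.976, and 9828 to 12202 genes per library reached 1 FPKM. Pro/pre-B library 3 was an exact copy of library 1 and was left out, leaving 75 libraries. Marker genes fit the labels HSC and MPP: Slamf1, a receptor used to sort stem cells, had 36.4 ± 10.4 FPKM (SD, n = 4) in HSC and 0.107 ± 0.161 in MPP, and Flt3, a receptor of later progenitors, had 2.65 ± 1.75 and 142 ± 56.3. Natural and induced BM ETP go partly against their names, and their values stand beside the results below.

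**Figure D1:**
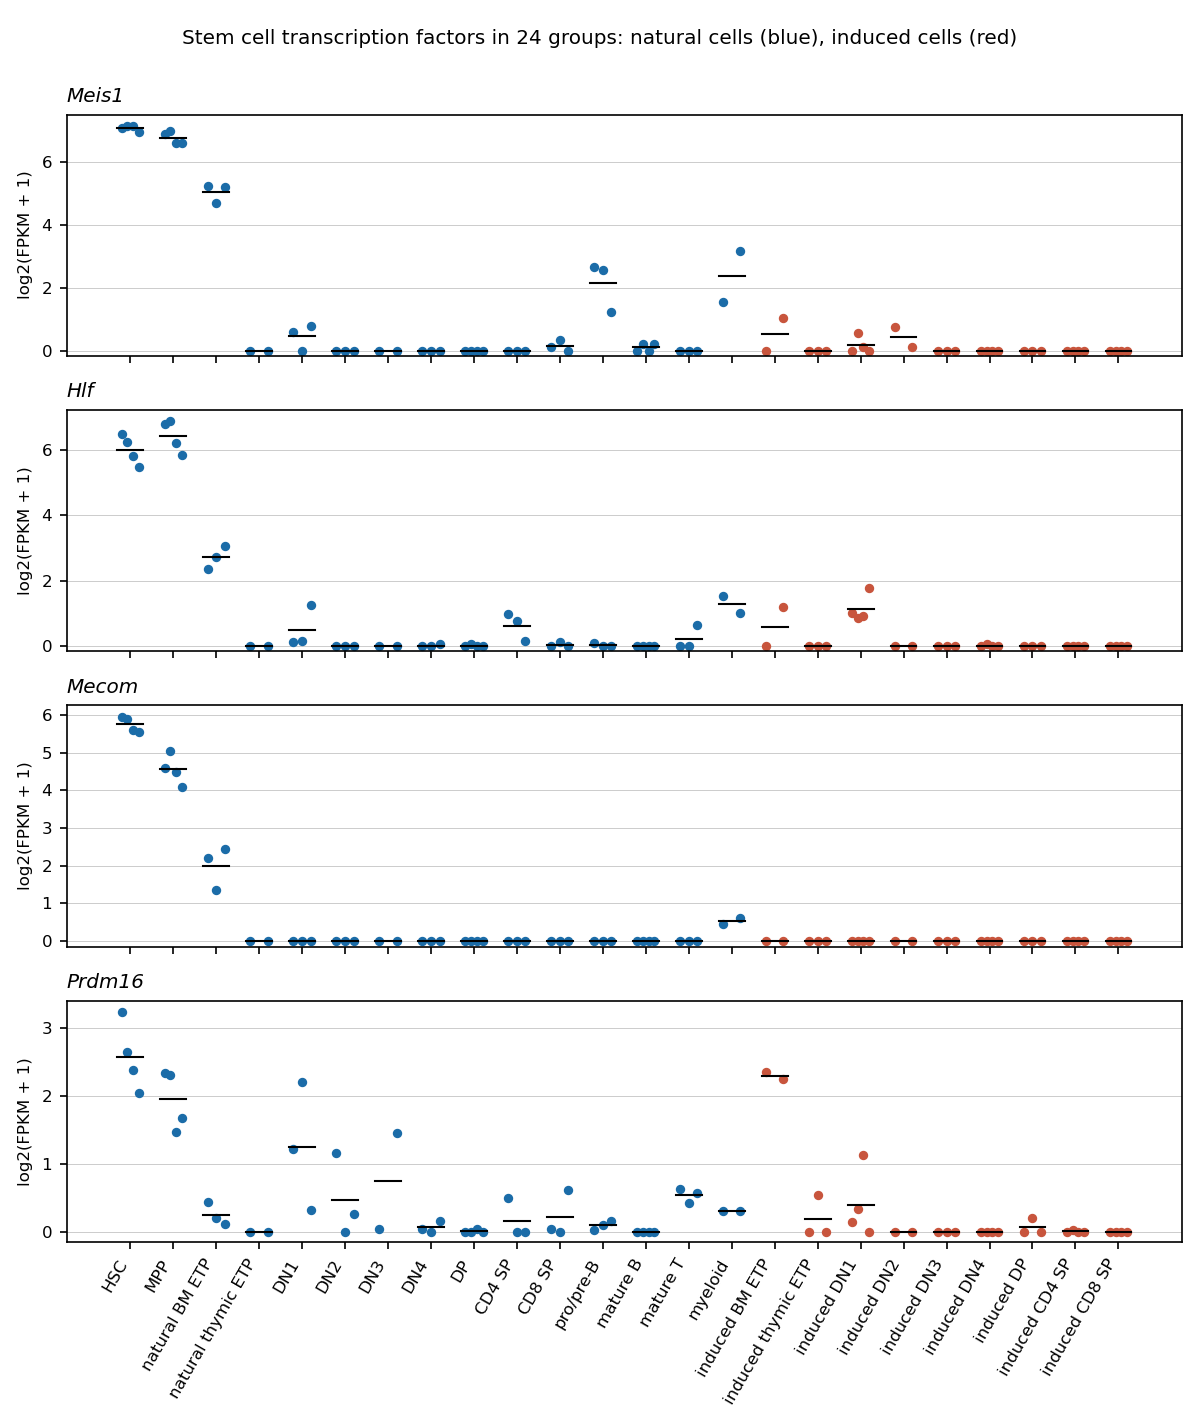
FPKM of the 4 genes in every library on the log2(FPKM + 1) scale, with a bar at the group mean of the log values; natural groups are blue and induced groups red. Meis1, Hlf and Mecom are high in HSC and MPP, and lower in natural BM ETP; Meis1 is also above 1 FPKM in pro/pre-B and myeloid libraries, while Prdm16 is also high in both induced BM ETP libraries.

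Meis1, Hlf and Mecom were concentrated in HSC and MPP. Of the sum of the 24 group means, HSC and MPP together held 84.9% for Meis1, 93.6% for Hlf and 95.5% for Mecom, but 48.0% for Prdm16. Meis1 was the most abundant per length, with 133 ± 7.92 FPKM in HSC (SD, n = 4), against 65.9 ± 19.9 for Hlf, 53.2 ± 7.60 for Mecom and 5.26 ± 2.28 for Prdm16. The order of the means was HSC, MPP, natural BM ETP, myeloid and pro/pre-B for Meis1, where HSC and MPP overlapped, as did myeloid and pro/pre-B. For Hlf it was MPP, HSC, natural BM ETP, myeloid and induced DN1, where MPP and HSC overlapped, as did myeloid and induced DN1. For Mecom it was HSC, MPP, natural BM ETP and myeloid, with no overlap between neighbors, and all other groups were listed at 0. For Prdm16 it was HSC, induced BM ETP, MPP and natural DN1, and each of these overlapped with the next.

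HSC and MPP were compared first. Mecom was higher in HSC, and the other 3 genes did not pass the test. Mecom had 61.0, 58.4, 47.5 and 45.9 FPKM in the 4 HSC libraries and 23.0, 32.1, 21.5 and 16.1 in the 4 MPP libraries. Every HSC library was above every MPP library. The log2 fold change was 1.20 ± 0.14 (SE, limma, adjusted p = 9.87e-10), and 0.0320 was the adjusted p when the 2 groups were fitted alone. In this comparison 8.13% of the 17416 tested genes passed the threshold of an adjusted p of 0.05. The SE comes from a spread shared by all groups, many of which list the members at 0, so p-values from the compared groups alone are given with the calls below.

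Meis1 had 131, 138, 139 and 122 FPKM in HSC and 116, 124, 96.1 and 94.8 in MPP. The ranges overlapped, and the log2 difference was 0.30 ± 0.22 (limma, adjusted p = 0.656). Hlf, the only member with a higher mean in MPP, had 88.7, 75.2, 55.8 and 43.8 FPKM in HSC and 109, 117, 72.8 and 57.0 in MPP. Its log2 difference was -0.42 ± 0.22 (limma, adjusted p = 0.381). Prdm16 had 8.42, 5.27, 4.23 and 3.11 FPKM in HSC and 4.07, 3.96, 1.77 and 2.18 in MPP, a log2 difference of 0.63 ± 0.25 (limma, adjusted p = 0.141). Without HSC library 4, the lowest, Prdm16 passed (adjusted p = 0.0491). In both groups libraries 1 and 2 were above libraries 3 and 4 for Hlf, Prdm16 and Mecom. Each HSC library was above the MPP library of the same number for Meis1, Mecom and Prdm16 and below it for Hlf. The labels give no such pairing, and it was not tested. Within libraries 1 and 2 alone and within 3 and 4 alone, splits chosen after seeing the data, the Hlf difference was -0.47 and -0.37 and the Mecom difference 1.11 and 1.28, and Mecom again was the only member called in each.

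Other genes of the stem cell network differed between HSC and MPP as well. Of 19 tested network genes other than the members, 6 were higher in HSC, 1 was lower and 12 did not pass. They were chosen from textbook knowledge with earlier results of these data known. Their median log2 difference was 0.14 against 0.00 over all genes, of which 5.01% were higher and 3.12% lower. Gata2, a zinc finger factor of stem cells and of mast cells, had 111 ± 6.60 FPKM in HSC and 37.3 ± 7.66 in MPP (SD, n = 4 each). Gfi1b, a repressor of stem and megakaryocyte cells, had 85.0 ± 14.3 and 15.3 ± 3.37, and Ndn, a growth restraining gene of quiescent stem cells, had 80.1 ± 10.7 and 26.2 ± 7.63. The related repressor Gfi1 went the other way, with 11.1 ± 5.81 in HSC and 43.9 ± 20.7 in MPP. Of 14 tested Hox, Pbx and related homeodomain genes, 4 were higher in HSC and 2 lower. Hoxb5, the gene used for the induction, had 4.50 ± 1.48 FPKM in HSC and 0.580 ± 0.250 in MPP. Hoxa9, a DNA-binding partner of Meis1, was lower in HSC (45.0 ± 3.80 against 82.6 ± 17.6). Markers of other lineages were higher in HSC as well. Of 5 tested megakaryocyte markers 4 were higher, with sums of 116 to 149 FPKM in HSC and 34.5 to 72.2 in MPP and 1 of 6 at 0 in each group. Of 5 erythroid markers 3 were higher, with sums of 15.4 to 22.0 and 0.359 to 3.36 and 2 at 0 in HSC. Their part in the network genes was not tested. None of the 3 bZIP relatives of Hlf (Dbp, Tef and Nfil3) and none of the 8 tested PRDM relatives passed in limma (0 and 1 at an unadjusted p under 0.05), and 3 PRDM genes of the list of 11 were not tested.

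All 4 members were higher in MPP than in natural BM ETP, where 27.8% of tested genes passed in either direction. Meis1 had 36.6, 24.8 and 35.3 FPKM in the 3 natural BM ETP libraries, below every MPP library, and the log2 difference was 1.72 ± 0.24 (limma, adjusted p = 5.34e-08, alone 0.00239). Hlf had 4.14, 5.64 and 7.41 FPKM, with a log2 difference of 3.71 and no overlap with MPP (adjusted p = 2.25e-19, alone 0.00144). Mecom had 3.63, 1.53 and 4.42 FPKM, again below every MPP library, with a log2 difference of 2.56 (adjusted p = 3.96e-21, alone 0.00548). Prdm16 was nearly absent, with 0.349, 0.154 and 0.0849 FPKM, and its log2 difference was 1.70 (adjusted p = 1.18e-06, alone 0.00808). As ratios of mean FPKM, MPP exceeded natural BM ETP 3.35-fold for Meis1, 15.5-fold for Hlf, 7.25-fold for Mecom and 15.3-fold for Prdm16. Whether these steps differ between members was not tested.

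The natural BM ETP libraries carried much RNA of other lineages. Their 8 myeloid marker genes summed to 18480 to 30490 FPKM, with none at 0, against 328 to 423 in HSC, and their 6 megakaryocyte markers summed to 273 to 504 against 116 to 149. The 8 T lineage markers summed to 5.66 to 10.0 FPKM, with 2 at 0 in all 3 libraries. The part of these cells in the member values was not tested, and in a sorted pool fewer cells with a gene and less RNA per cell cannot be told apart. Of the network genes, 12 of 19 were higher in MPP than in natural BM ETP and 4 lower. Of all tested genes 15.2% were higher and 12.6% lower. The median log2 difference was 0.81 for the network genes against 0.01 over all genes. Nkx2-3, a homeobox gene, and Ndn fell with the members, to 2.26 ± 0.887 and 0.206 ± 0.188 FPKM in natural BM ETP (SD, n = 3). Gata2 and Gfi1b did not follow them and were higher in natural BM ETP, at 66.8 ± 14.1 and 42.7 ± 10.0. Of the Hox, Pbx and related genes 5 of 14 were higher in MPP and 0 lower, among them Hoxa9 and Hoxa10. At an unadjusted p under 0.05, limma gave 6 higher and 1 lower.

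**Figure D2:**
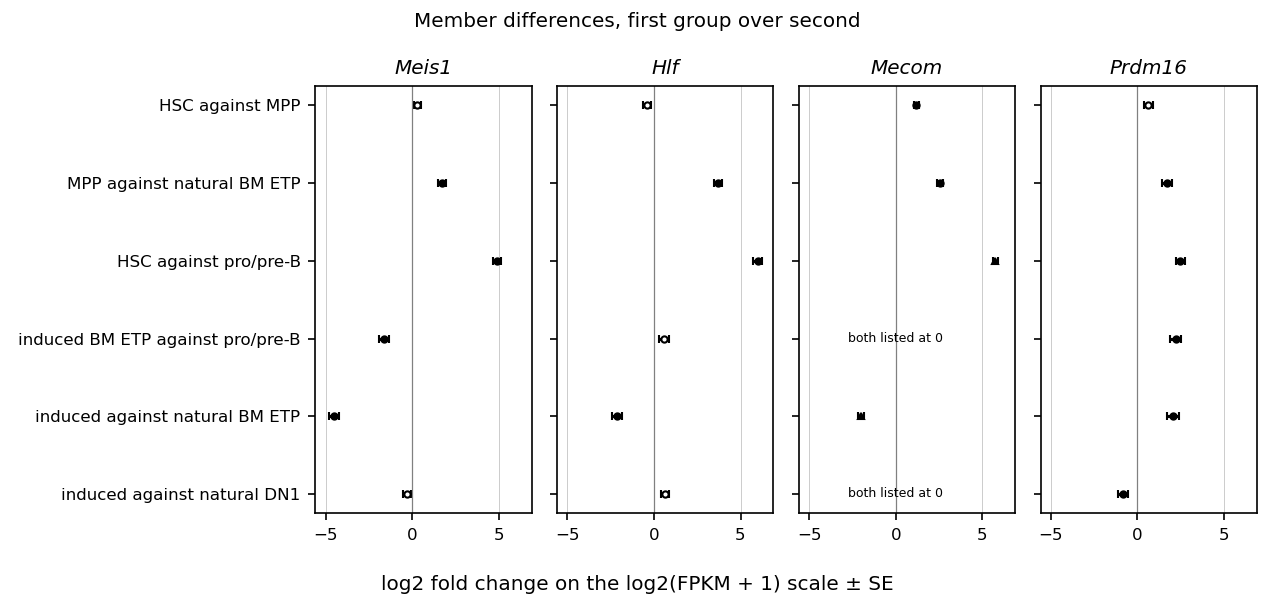
Log2 fold change of each gene (x axis, first group over second, on the log2(FPKM + 1) scale, with its SE) in 6 comparisons. Filled symbols passed an adjusted p of 0.05, and triangles have 1 group listed at 0, so their position depends on the added 1. Prdm16 is the member to the right of 0 in the comparison of induced with natural BM ETP.

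Pro/pre-B cells, the cells that received Hoxb5, held little of these genes. All 4 members were higher in HSC, where 41.2% of tested genes passed in either direction. Meis1 had 5.38, 4.91 and 1.34 FPKM in pro/pre-B libraries 1, 2 and 4, the highest level of any member there, and HSC exceeded it by 4.91 ± 0.24 on the log2 scale (limma, adjusted p = 1.90e-25, alone 0.000424). Library 4, the lowest for Meis1, also had a myeloid marker sum of 4616 FPKM against 51.2 and 29.4 in libraries 1 and 2. Without it the Meis1 difference was 4.44 (adjusted p = 4.61e-23). Prdm16 had 0.0204, 0.0735 and 0.121 FPKM, Hlf had 0.0618 in library 1 and was listed at 0 in libraries 2 and 4, and Mecom was listed at 0 in all 3. No pro/pre-B library reached the lowest HSC library in any member, and with the 2 groups fitted alone the adjusted p was 5.43e-05 for Hlf, 4.39e-06 for Mecom and 0.00186 for Prdm16. Of the network genes 15 of 19 were higher in HSC and 2 lower (Gfi1 and Myb), and of the Hox, Pbx and related genes 10 of 14 were higher and 1 lower (Pknox1).

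Induced BM ETP did not show the 4 genes together. Against the pro/pre-B cells Prdm16 was higher, Meis1 was lower, Hlf did not pass and Mecom was listed at 0 in all 5 libraries. In this comparison 15.5% of tested genes passed in either direction. Prdm16 had 4.09 and 3.74 FPKM in the 2 induced libraries, above every pro/pre-B library and within the range of HSC. The log2 difference was 2.2 ± 0.33 (limma, adjusted p = 4.48e-07), but with the 2 groups fitted alone it did not pass (adjusted p = 0.213). Meis1 was listed at 0 in induced library 1 and had 1.06 FPKM in library 2, below every pro/pre-B library. Its log2 difference was -1.63 ± 0.29 (adjusted p = 1.76e-05), which likewise did not pass alone (adjusted p = 0.511). Hlf was listed at 0 in library 1 and had 1.29 FPKM in library 2, a log2 difference of 0.57 that did not pass (adjusted p = 0.208). It was -0.03 without library 2, and 1.17 without library 1, where it passed (adjusted p = 0.0170).

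Against natural BM ETP, Prdm16 was higher and the other 3 members lower in the induced cells, where 31.1% of tested genes passed in either direction. Prdm16 was higher by 2.05 ± 0.33 on the log2 scale (limma, adjusted p = 7.33e-07, alone 0.00515), and both induced libraries were above all 3 natural ones. Meis1 was lower by a log2 difference of -4.51 ± 0.29 (adjusted p = 5.93e-20, alone 0.0111). Mecom was listed at 0 in both induced libraries and above 0 in all 3 natural ones (adjusted p = 6.67e-14, alone 0.0476). Hlf was lower by -2.12 (adjusted p = 1.85e-08) without overlap, a call that was lost when the 2 groups were fitted alone (adjusted p = 0.0612). Both comparisons share the 2 induced libraries, so they are not separate evidence for Prdm16.

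The 2 induced BM ETP libraries looked in other ways like B lineage cells. Their 8 B lineage markers summed to 8047 and 7654 FPKM, with none at 0. The sums were 7881 to 8574 in pro/pre-B cells and 68.7 to 86.9 in natural BM ETP. Against pro/pre-B cells 4 of the 8 were lower and 0 higher in limma, with a median log2 difference of -1.1. Of all tested genes 7.4% were lower and 8.1% higher, with a median of 0. Ebf1, a B lineage factor, had 114 ± 2.65 FPKM (SD, n = 2). The T lineage markers summed to 37.4 to 40.8 FPKM, with 6 of 8 at 0 in both libraries. In both libraries the same immunoglobulin segments led: Ighv4-1 made up 79.5% and 100% of summed heavy chain V segment FPKM, and Igkv2-137 made up 68.3% and 84.9% of the kappa segments. In pro/pre-B cells the leading kappa segment differed between libraries and made up 11.1% to 13.8%, while the leading heavy chain segment, also different in each, made up 28.4%, 35.1% and 50.6%. The heavy chain sums of the induced libraries were low, at 30.4 and 10.8 FPKM. The part of shared descent of the 2 libraries in their Prdm16 level was not tested.

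A gene near Prdm16 was also seen in these libraries, mostly in library 2. Among the 2 nearest protein coding genes on each side of every member, looked at after their values were known, Megf6 lies 40412 bases from Prdm16. Megf6, which encodes a protein with repeats like those of epidermal growth factor, had 2.24 and 16.9 FPKM in the induced BM ETP libraries. It was listed at 0 in all natural BM ETP libraries and was at most 0.545 FPKM in HSC, MPP and pro/pre-B libraries, but 1 natural DP library, library 4, had 4.59 FPKM. Arhgef16, which lies between them, had at most 0.0817 FPKM in the induced libraries, and Actrt2 and Ttc34 on the other side were listed at 0. In induced BM ETP Prdm16 thus stood beside 1 of its neighbors, in 2 libraries that lead with the same V segments. In HSC and MPP, Arhgef16 had 0.512 to 1.80 and 0.245 to 1.21 FPKM, and it was listed at 0 in natural BM ETP and pro/pre-B. Ttc34 had 0 to 4.79 FPKM in HSC and was listed at 0 in MPP. Beside Hlf, Stxbp4, which encodes a syntaxin binding protein, had 14.4 ± 2.68 FPKM in HSC and 25.0 ± 2.98 in MPP (SD, n = 4), against 2.59 ± 0.988 in natural BM ETP (n = 3). Its MPP libraries were all above its HSC libraries, while those of Hlf overlapped. Stxbp4 also had 6.70 ± 3.90 FPKM in natural DP (n = 4), where the Hlf mean was 0.0106. Of the other Hlf neighbors, Mmd had 7.59 to 9.59 FPKM as means of HSC, MPP and natural BM ETP. Cox11 had 4.07 to 6.04 and Tmem100 at most 0.503. Around Meis1, C1d, Etaa1, Spred2 and Actr2 had 27.8 to 42.4, 4.29 to 4.86, 4.76 to 6.91 and 36.5 to 68.7 FPKM as means of HSC, MPP and natural BM ETP, and of the Mecom neighbors Mynn had 3.92 to 8.07.

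**Figure D3:**
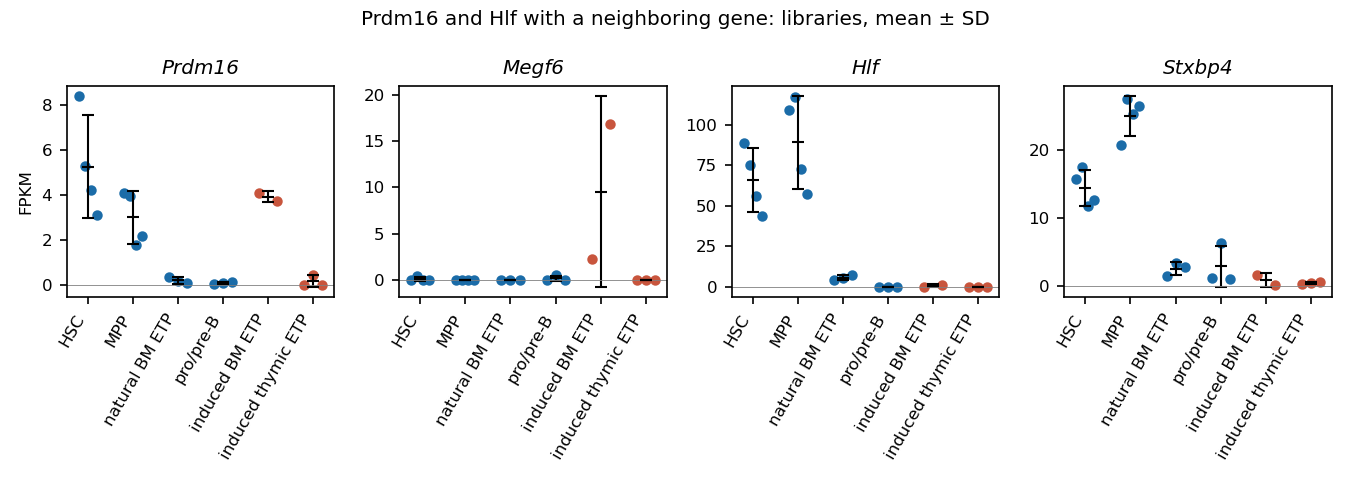
FPKM of Prdm16, its neighbor Megf6, Hlf and its neighbor Stxbp4 (y axes, linear and separate) by library in 6 groups, with the mean ± SD; induced groups are red. Prdm16 is high in both induced BM ETP libraries, where Megf6 has 2.24 FPKM in library 1 and 16.9 in library 2. Megf6 is near 0 in HSC and MPP, where Prdm16 is high.

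Some network genes were higher in induced BM ETP. Against pro/pre-B cells 8 of 19 were higher and 0 lower in limma, with a median log2 difference of 0.57 against 0.00 over all genes. At an unadjusted p under 0.05 these numbers were 9 and 2. Of all tested genes 8.1% were higher and 7.4% lower at the adjusted threshold. The 8 were Gata2, Tal1, Lmo2, Runx1, Mycn, Nfix, Zfp521 and Egr1. Lmo2, a bridging protein of the Tal1 complex, had 48.3 ± 0.657 FPKM in induced BM ETP (SD, n = 2) and 15.8 ± 2.46 in pro/pre-B (n = 3). Some markers of other lineages were also higher. Erythroid markers summed to 62.0 and 37.0 FPKM against 0, 6.12 and 0 in pro/pre-B, with 2 of 5 higher and 1 at 0 in both induced libraries. Of 8 myeloid markers 3 were higher, with sums of 1709 and 1211 FPKM and 1 at 0. In pro/pre-B libraries 1, 2 and 4 these markers summed to 51.2, 29.4 and 4616 FPKM, so library 4 was above both induced libraries. Of 5 mast cell markers 3 were higher, with Gata2 itself on that list (0.934 and 34.0, 2 at 0). Of 5 tested megakaryocyte markers 2 were higher (2.04 to 6.07, 3 of 6 at 0). The part of these other lineages in the network genes or in Prdm16 was not tested. Against natural BM ETP 2 network genes were higher (Erg and Fli1, both ETS factors) and 9 lower. Of all tested genes 14.4% were higher and 16.8% lower there. Of 14 tested Hox, Pbx and related genes, 2 were higher and 8 lower than in natural BM ETP in limma. Against pro/pre-B cells 2 of them were higher and 3 lower. Hoxa9 and Hoxa10 were listed at 0 in both induced libraries. In the fit of induced BM ETP and pro/pre-B alone only 13 of all tested genes passed, against 2698 in the fit of all groups.

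**Figure D4:**
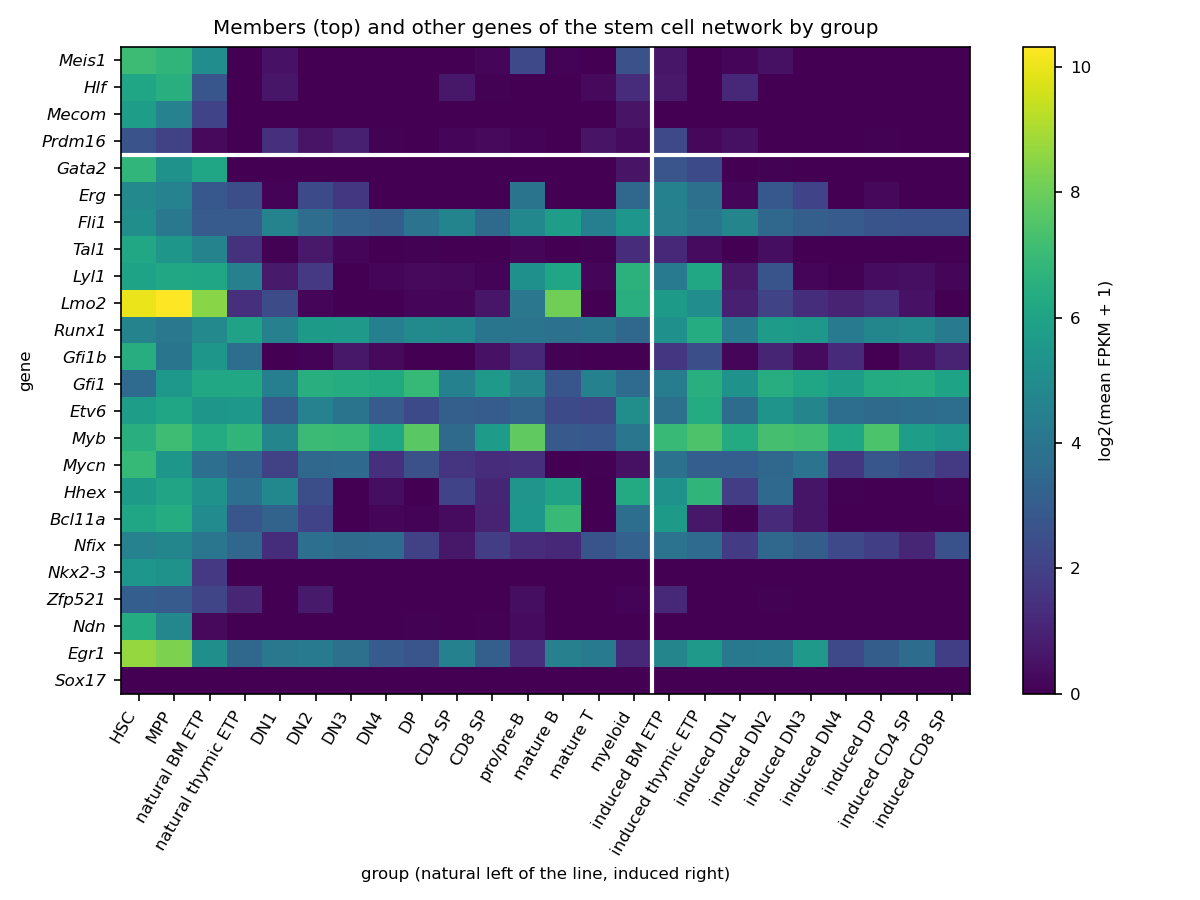
Mean level of the 4 members (above the white line) and 20 other stem cell network genes (below it) in the 24 groups, as log2(mean FPKM + 1) by color; the vertical line parts natural from induced groups. Mecom, Nkx2-3 and Ndn are bright in HSC and MPP and dark in the induced groups, while Runx1, Myb and Gfi1 are present across most groups.

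In the thymus Mecom was not seen, Meis1 stayed below 1 FPKM, and Hlf and Prdm16 passed it in a few libraries. Over 50 thymic libraries, 23 natural and 27 induced, Mecom was listed at 0 in all 50, Meis1 in 42, Hlf in 36 and Prdm16 in 31. Meis1 reached at most 0.731 FPKM there, in natural DN1. No thymic library reached 1 FPKM of Meis1, 3 did for Hlf and 5 for Prdm16. The highest Prdm16 value, 3.63 FPKM in natural DN1 library 2, was within the range of HSC. All members were listed at 0 in both natural thymic ETP libraries. In induced thymic ETP Meis1, Hlf and Mecom were listed at 0 in all 3 libraries, and 0 of 4 members passed in limma against natural thymic ETP, none at an unadjusted p under 0.05 (8.27% of all tested genes passed). Against the pro/pre-B cells Meis1 was lower in induced thymic ETP (adjusted p = 5.19e-10, alone 0.0440), where 29.8% of tested genes passed, and no other member was called. Other network genes were present: Gata2 had 3.96 ± 0.867 FPKM in induced thymic ETP (SD, n = 3), and 10 of 19 network genes were higher than in pro/pre-B cells and 1 lower. Hoxb5 had 2.74 ± 0.972 FPKM there and 0.358 ± 0.368 in induced BM ETP (n = 2), and RNA of the virus and of the cell's own gene cannot be told apart.

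Prdm16 was above 0 in 13 of 23 natural thymic libraries, with 1.24 FPKM in natural DN2 library 1. In DN1 Prdm16 had 1.32, 3.63 and 0.254 FPKM in the natural libraries and 0.103, 0.266, 1.18 and 0 in the induced ones, so the ranges overlapped. It was lower in induced DN1 by a log2 difference of -0.85 (limma, adjusted p = 0.0199, with 18.8% of tested genes called). This call did not hold with the 2 groups fitted alone (adjusted p = 0.363), without natural library 2 (0.474), without induced library 1 (0.0626) or without induced library 4 (0.0871), and it missed the threshold narrowly with 0.1 added in place of 1. With only library 3 of natural DN1 kept and library 2 of natural DN2 dropped, tried with earlier results known, the difference was 0.0753 in the other direction. Markers of other cells also differed between the DN1 groups. The 5 dendritic markers summed to 348 to 509 FPKM in natural and 11.8 to 36.2 in induced DN1, with none at 0 and all 5 lower in induced cells. The 5 natural killer markers summed to 2063 to 2594 and 1643 to 2086, with none at 0 and 4 lower. Their part in the Prdm16 difference was not tested. Hlf in DN1 had 0.0919, 0.106 and 1.37 FPKM in the natural libraries and 1.02, 0.833, 0.905 and 2.43 in the induced ones, a log2 difference of 0.64 that did not pass (adjusted p = 0.0536). It passed in 5 of 13 alternatives, with the lowest adjusted p, 0.00285, without natural library 3. In CD4 SP Hlf had 0.971, 0.692 and 0.112 FPKM in natural cells and was listed at 0 in all 4 induced libraries (adjusted p = 0.0458, alone 0.118, with 26.4% of tested genes called), a call lost in 9 of 12 alternatives, among them leaving out natural library 1 or 2 or any 1 of the induced libraries.

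No member was called between induced and natural cells at DN2 (1.5% of tested genes called), DN3 (3.54%), DN4 (0.741%), DP (10.4%) or CD8 SP (10.6%) in limma. Members listed at 0 in both groups could not differ: 2 at DN2, 3 at DN3, 2 at DN4, 2 at DP and 1 at CD8 SP. Of the rest, 0 had an unadjusted p under 0.05 at DN2, DN4, DP and CD8 SP, and 1 did at DN3. That member was Prdm16, with 0.0292 and 1.73 FPKM in the 2 natural DN3 libraries and 0 in the 3 induced ones. Its log2 difference of -0.74 (limma, adjusted p = 0.218) depends on the added 1. Over the alternatives the difference was -2.28 to -0.0415.

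Mature cells held little as well. Of the 7 mature B and T libraries none reached 1 FPKM of any member. Myeloid libraries had 1.93 and 8.01 FPKM of Meis1, 1.92 and 1.02 of Hlf and 0.353 and 0.524 of Mecom, and at their depth of about 1 fragment per FPKM and kilobase these rest on few fragments. The 2 myeloid libraries were the only ones outside HSC, MPP and natural BM ETP with any Mecom, which was above 0 in 13 of 75 libraries.

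Across the 24 group means on the log2(FPKM + 1) scale, Hlf and Mecom were most alike of the member pairs (Pearson r = 0.974), followed by Meis1 with Hlf (0.945) and with Mecom (0.942). Prdm16 correlated with Meis1, Hlf and Mecom at 0.624, 0.720 and 0.699. These values describe 24 points that share 1 table, and most of them are at or near 0. Among 11222 genes compared with a group mean of at least 5 FPKM in some group, those most like Mecom were Trpc6 (0.996), a cation channel, Bgn (0.995), a matrix proteoglycan, and Unc45b (0.994), a myosin chaperone. Trpc6 had 26.5 FPKM in HSC, 11.1 in MPP and 3.29 in natural BM ETP. Those most like Hlf were Casp12 (0.982), Tnip3 (0.982) and Col4a2 (0.981), and Casp12 was also among the 5 for Mecom (0.993). Nearest to Meis1 were Adgrl4 (0.990), an adhesion receptor, Scarf1 (0.982) and Fkbp9 (0.978). Genes at r above 0.9 numbered 112 for Meis1, 145 for Hlf and 164 for Mecom, but 1 for Prdm16. That gene was Cbr3 (0.913), a carbonyl reductase, with 6.34 FPKM in HSC, 3.77 in MPP and 13.1 in induced BM ETP.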

How the data were processed

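The authors' deposited table gives FPKM per Ensembl gene and library. Per the submitters' processing notes, bcl2fastq, TopHat, Cufflinks 2.2.1, Cuffnorm and the build NCBIM37 were used; parameters, annotation version and library normalization are not given in the sources used here. Symbols came from GENCODE M21 (GRCm38) and matched 32916 IDs (86.7%). Pro/pre-B library 3, identical to library 1, was left out.

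Values were transformed as log2(FPKM + 1), so changes of low genes are understated. The 17416 genes that reached 1 FPKM in 2 or more libraries were fitted with 1 mean per group in limma 3.58.1 (R 4.3.3, trend and robust, 51 residual degrees of freedom). Tests were two-sided over 14 comparisons, with Benjamini-Hochberg adjustment within each over all tested genes. The fit was tested on simulated data for 2 of the comparisons, with the spread of each gene set equal in all groups. Members listed at 0 in many groups do not have such a spread, so the simulation is no check of their p-values. Figures used Python 3.11.15 and matplotlib 3.10.9. Depth was estimated from 4285 single-transcript genes, of which 152 to 450 per library had a low value above 0. Of these low values, 74.6% to 93.1% lay within 0.2 of a whole number of fragments. The depth was chosen to make this share large, so the share is no separate check of it. The members and lists were chosen with earlier results of these data known. Named genes were the members, the list genes and the 5 genes most like each member; neighbors were added after values were seen. Some list genes and genes most like a member are not reported here.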

Additional observations from a re-analysis of the deposited data

Results flagged for a closer look

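Of 16 sets tested, each 1 member in 1 group of 4 libraries, 5 had a library far from the other 3. Chance flags about 1 in 20 sets of continuous values, a rate that does not apply where 3 libraries are listed at 0. For Hlf these were DP library 2 (0.0423 FPKM), induced DN1 library 4 (2.43 FPKM) and induced DN4 library 2 (0.0556 FPKM). For Prdm16 they were DP library 3 (0.0280 FPKM) and induced CD4 SP library 2 (0.0180 FPKM). DP is counted under both genes. All but the induced DN1 value stand against 3 libraries listed at 0.

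The difference of mean FPKM, induced minus natural, had opposite signs at different stages with no overlap of libraries at either stage. For Meis1 it was 0.388 at DN2 and -31.7 at BM ETP. The DN2 value rests on 0.675 and 0.101 FPKM in the 2 induced libraries and did not pass (limma, adjusted p = 0.6955). For Prdm16 the difference was 3.72 at BM ETP and -0.878 at DN3, where it did not pass (limma, adjusted p = 0.218). Whether the stages differ was not tested.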

How the results depend on the processing

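Alternatives were adding 0.1 in place of 1, testing all genes without a filter, totals set equal between libraries, a replicate block, the compared groups fitted alone and each library left out. Splits of HSC and MPP libraries, and leaving out natural DN1 libraries 1 and 2 with natural DN2 library 2, were added after seeing the data. Of the counts of members called, 141 kept within 1.5 times of the value above and 21 did not. The 141 include counts that were 0 and stayed 0, and members listed at 0 in both groups could not be called. The tally is thus no measure of how stable the calls were. The number called between HSC and MPP was 2 without HSC library 4, and 1 to 2 over left out libraries. In CD4 SP it was 0 with equal totals, with the replicate block, alone, and 0 to 1 over left out libraries. In DN1 it was 2 with equal totals, 0 alone, 0 without the 3 natural libraries named above, and 0 to 2 over left out libraries. In DN3 it was 1 without natural library 1 and 0 otherwise, and for induced BM ETP against pro/pre-B it was 0 alone. Where 0 were called in limma, 1 member had an unadjusted p under 0.05 in CD4 SP alone, 0 in DN1 alone and 1 in induced BM ETP alone. The causes were not tested.

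Of the differences that turned direction, Prdm16 in DN1 had passed the test and the others had not. Hlf in DN4 was -0.00115 and became 0.00069 with equal totals, 0.0191 with the replicate block and -0.0207 to 0.0195 without single libraries (positive in 4 of them). Without the 3 natural DN1 and DN2 libraries, DN1 differences were -0.0974 for Hlf and 0.0753 for Prdm16. Leaving out 1 library gave -0.0289 to 1.17 for Hlf in induced BM ETP against pro/pre-B. For Prdm16 it gave -0.239 to 0.00645 in CD4 SP, -0.00995 to 0.0948 in DP and -0.0987 to 0.175 in induced thymic ETP against pro/pre-B. With equal totals the levels in myeloid cells were 0.793 FPKM for Hlf, 0.274 for Mecom and 0.139 for Prdm16, and mature T cells had 0.338 for Prdm16.

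The replicate block changed no other call of a member. It gave each library number an effect shared by all groups, so it does not pair HSC with MPP, and no paired test was run. The labels do not tie a number to an animal or batch, and HSC and MPP libraries with the same number had correlated deviations of 0.0245 to 0.131, with 4 of 8 nearest to their own number. With the compared groups fitted alone, genes called fell from 1416 to 827 for HSC and MPP, 4599 to 2132 in CD4 SP, 262 to 50 in DN2, 1804 to 115 in DP, 1441 to 16 in thymic ETP, 2698 to 13 for induced BM ETP against pro/pre-B and 5193 to 2872 for induced thymic ETP against pro/pre-B. In DN4 they rose from 129 to 374, and in DN3 they fell from 616 to 0, with 1055 at an unadjusted p under 0.05. Without the 3 natural DN1 and DN2 libraries DN1 had 1505 in place of 3280. Leaving out 1 library gave 130 and 133 in DN2, 315 and 394 in DN3, 77 in DN4, 771 and 882 in thymic ETP and 1706 for induced BM ETP against pro/pre-B.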
